A study of Mus musculus with 10 samples.

Results

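The major histocompatibility complex (MHC) genes of the mouse, named *H2*, and the genes that load their products with peptide were described in spinal cord RNA. Members were chosen by name: every listed gene whose symbol starts with H2-, together with *B2m*, *Tap1*, *Tap2*, *Tapbp*, *Tapbpl*, *Cd74*, *Ciita* and *Nlrc5*, if its mean level was above 0. Of 52 such genes among the 25232 listed, 42 were above 0 and 10 were listed at 0, and 20973 of all listed genes were above 0.

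The study compared the spinal cord of *SOD1 G93A* mice, a model of amyotrophic lateral sclerosis, with that of wild type (WT) littermates by bulk RNA sequencing. The WT group had 5 libraries of female C57BL/6 mice of 90 days without the transgene. The *SOD1 G93A* group had 5 libraries of female mice of the same strain and age in which a human *SOD1* transgene with the G93A mutation is present in many copies. That transgene is driven by the human gene's own promoter, so it is not limited to a cell type. The labels name the spinal cord, and the methods name its lumbar part, a C57BL/6J background and 5 mice per group.

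The level of each gene is given as the authors' mean, in which the reads of each of the 10 libraries were divided by a size factor and averaged over both genotypes. A value of this kind describes the tissue of these mice as a whole. It cannot tell *SOD1 G93A* from WT, and the difference between genotypes was not analysed here. The smallest means took 10 distinct values between 0.0868 and 0.119, each the worth of 1 read in 1 library, and they gave size factors from 0.840 to 1.15 with a median of 1.02, a 1.37-fold range in depth. All 1128 genes with a mean above 0 and below 0.25 were whole numbers of reads on these steps, within 3e-08. A mean of 1 thus stands for about 9.97 reads over all libraries, and a gene listed at 0 may have a mean of up to 0.301, the worth of 3 reads. All intervals given with levels are 95% Poisson intervals and cover counting error only, not the spread between mice.

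MHC class I molecules consist of a heavy chain and the light chain β2-microglobulin, and they show peptides from inside the cell to CD8 T cells. Class II molecules are pairs of an alpha and a beta chain that show peptides from endosomes to CD4 T cells. In the healthy central nervous system most cells have little MHC, and microglia and the macrophages of its borders are the resident cells best known for making class II.

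The members were mostly genes of modest level. Their means summed to 8329, which was 0.0376% of the sum over all genes. The median member had a mean of 73.1, against 247 for all genes above 0, while 34 of the 42 members (81.0%) reached a mean of 10, against 75.9% of all genes. Ratios between genes are given below per kilobase of annotated exon, while shares of a sum and counts use the mean unless stated. Per kilobase, the median member was at 25.01 and the median gene at 63.5. The members' median sat at percentile 36.9 of all genes on that scale, and 12 of the 41 members with a known length lay above the median gene.

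Class I products made up most of the members' RNA. On the scale of reads, heavy chains held 34.5% of the summed mean, *B2m* 27.6% and the class I loading genes 21.8%, together 84.0%. Class II chains held 3.00% and their loading genes 5.74%. The 2 regulators held 1.81%, and *H2-Ke6*, which lies in the region without being an MHC chain, held the other 5.48%. Summed per kilobase the order of the largest classes changed, with 54.3% for *B2m*, 23.2% for heavy chains, 10.3% for class I loading, 4.32% for class II loading and 1.965% for class II chains. On that scale the heavy chains in sum stood 11.8-fold above the class II chains, and from 10.3-fold to 11.8-fold over 4 ways to define a gene's length. These sums run over 22 heavy chain genes and 5 class II chain genes with a known length. The median gene was lower in heavy chains, at 17.1 per kilobase, than in class II chains, at 21.8. In bulk tissue, many cells with little RNA of a gene and few cells with much of it cannot be told apart.

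**Figure D1:**
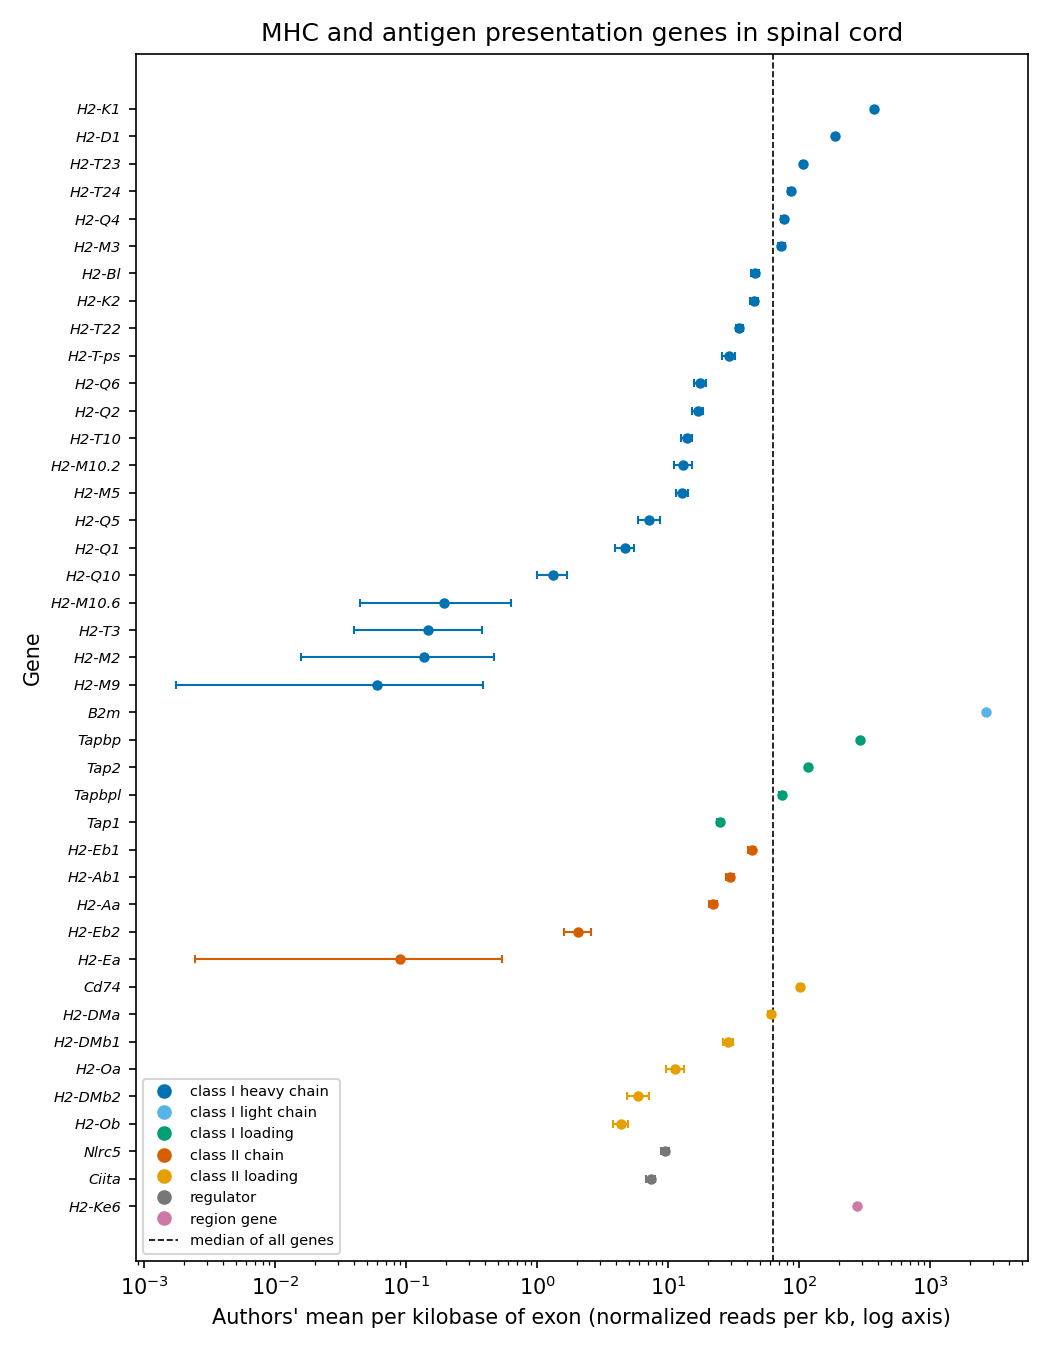
Level of 41 members with a known length, by class, as the authors' mean per kilobase of exon on a log axis; bars are 95% counting intervals and the dashed line is the median of all genes at 63.5. *B2m* at 2675 stands to the right of all others, and the heavy chains run from 370.1 for *H2-K1* down to 0.0602 for *H2-M9*.

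*B2m* encodes the light chain that all classical class I molecules share. It had the highest level of the members, with a mean of 2300.5 (2271 to 2330.5) and 2675 per kilobase, at percentile 98.9 of all genes. On the per-kilobase scale it stood 7.23-fold above *H2-K1*, the next member, and this ratio ran from 2.12 to 10.9 over 4 ways to define a gene's length. Over the sum of the heavy chains with a known length it was 2.34 per kilobase of exon and 0.894 by the median transcript, so which of them was higher depends on the length used.

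*H2-K1* and *H2-D1* are the classical heavy chains of the C57BL/6 strain and present most peptides to CD8 T cells. *H2-K1* had a mean of 1087 (1067 to 1108) and *H2-D1* 487 (473 to 500.6), or 370.1 and 189 per kilobase. Both were above the median gene, at percentiles 84.9 and 72.2. Together they held 54.7% of the heavy chain sum. *H2-K1* was 1.961-fold higher than *H2-D1* per kilobase (counting interval 1.896 to 2.03), and between 1.42-fold and 2.51-fold higher over the 4 length definitions. The order of the pair was therefore the same under each definition, and the size of the gap was not. *H2-K2*, annotated as a transcribed pseudogene beside *H2-K1*, was 8.21-fold below it per kilobase (6.38 to 21.4 over the length definitions), with a mean of 77.3.

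The strain carries the b haplotype of *H2*, which has no *H2-L* gene. The row of *H2-L* in the table held 5 reads over all 10 libraries, a mean of 0.501 (0.163 to 1.17).

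Nonclassical heavy chains are less variable between strains and have narrower tasks. *H2-T23* encodes Qa-1, which presents leader peptides of other class I chains to receptors of natural killer cells. It was the highest of them, with a mean of 308 and 107 per kilobase. Next on that scale came *H2-T24* at 86.2, *H2-Q4* at 76.1 and *H2-M3*, which binds peptides that begin with formylmethionine, at 72.6. *H2-M3* over *H2-Q4* was 0.954 with a counting interval of 0.885 to 1.03, and from 0.806 to 0.954 over the length definitions, and *H2-T24* over *H2-Q4* was 1.13 by exon length, with a range of 0.974 to 1.36. All 4 genes were above the median gene per kilobase. Of the exon bases of *H2-Q4*, 19.1% overlap the antisense gene *Gm11131*, with which it shares 11.8% of its windows of 100 bases. The part of *Gm11131* in the level of *H2-Q4* was not tested.

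*H2-T22* and *H2-T10* are known for chains that need no peptide and are ligands of some gamma delta T cells, and *H2-T10* is annotated as a polymorphic pseudogene. Their means were 119 and 47.3, or 34.9 and 13.8 per kilobase. Of their windows of 100 bases, 68.5% and 71.9% occurred in no other annotated gene on either strand. Most of the shared windows, 24.01% of all in *H2-T22* and 22.5% in *H2-T10*, belong to the antisense genes *A930015D03Rik* and *BC023719*, which overlap them at the same place, and 6.92% and 7.06% were shared between *H2-T22* and *H2-T10* themselves. *A930015D03Rik* had a mean of 111, close to that of *H2-T22*, and the part of the antisense genes in these levels was not tested. *H2-Bl*, annotated in the same way as *H2-T10*, had a mean of 76.9, and the pseudogene *H2-T-ps* had 31.0. *H2-T3*, which encodes the thymus leukemia antigen of gut epithelium, was near 0 with 4 reads in all libraries (mean 0.402, 0.109 to 1.03).

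The Q family spread widely. *H2-Q4* had a mean of 198, *H2-Q6* 36.6, *H2-Q2* 36.5, *H2-Q1* 13.3 and *H2-Q5* 11.4, and *H2-Q10*, which encodes a chain secreted by the liver, had 5.69. Per kilobase *H2-Q4* was highest at 76.1, *H2-Q6* and *H2-Q2* followed at 17.5 and 16.7, and *H2-Q10* was at 1.31. The counting intervals of *H2-Q6* (15.8 to 19.4) and *H2-Q2* (15.1 to 18.5) overlapped. *H2-Q7*, *H2-Q8* and *H2-Q9* were listed at 0. *H2-Q7* and *H2-Q9* encode the Qa-2 antigen and are close copies of each other. Of the windows of *H2-Q7*, 88.0% were found in no other annotated gene, but *H2-Q8* and *H2-Q9* were not among the transcripts searched, so the share that is free of copies is not known. Whether the 0 reflects reads lost between copies or little RNA was not tested.

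The M family had many genes near 0. Of its 12 listed genes, 6 were at 0 and 3 others were below a mean of 1, namely *H2-M10.6* with 3 reads, *H2-M2* with 2 and *H2-M9* with 1. The M10 genes are known from sensory neurons of the vomeronasal organ. *H2-M10.1*, *H2-M10.3*, *H2-M10.4* and *H2-M10.5* were at 0, as were *H2-M1* and *H2-M11*, although each of these 6 genes had all of its windows to itself. *H2-M10.2* departed from its subfamily with a mean of 14.5 (12.2 to 17.03), also with all windows unique. *H2-M3* at 104 and *H2-M5* at 34.3 were the other members of this family above 10. The last gene listed at 0 was *H2-T9*.

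Over all heavy chains, the K genes held 40.5% of the summed mean, the T genes 24.1%, *H2-D1* 16.9%, the Q genes 10.5%, the M genes 5.34% and *H2-Bl* 2.67%. Of 33 heavy chain genes listed, 23 were above 0, 17 reached a mean of 10 and 7 reached 100. Most of the heavy chain RNA thus came from a few genes, and the long tail was near or at 0.

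Loading of class I takes place in the endoplasmic reticulum. The transporter formed by *Tap1* and *Tap2* brings peptides in, tapasin (*Tapbp*) holds the empty molecule at the transporter, and *Tapbpl* encodes another peptide editor that works away from it. *Tapbp* had a mean of 1062 and 293 per kilobase, *Tap2* 443 and 117, *Tapbpl* 173 and 73.7, and *Tap1* 137 and 25.01. The subunits of the transporter were thus unequal at the RNA level: *Tap2* was 4.69-fold above *Tap1* per kilobase (4.41 to 4.98), and from 3.68-fold to 22.6-fold over the length definitions. *Tapbp* exceeded *Tap2* by 2.50-fold, with a range of 1.39 to 2.84, so the order *Tapbp*, *Tap2*, *Tap1* was the same by each definition. Of the exon bases of *Tapbp*, 24.9% overlap the antisense gene *Gm19412* and 4.11% overlap *Zbtb22*, which lies on the same strand and had a mean of 583. Of the exon bases of *Tap2*, 18.5% overlap *Gm15821* and *Gm20496* on the other strand. For *Tap1* 3.87% overlap *Psmb9*, also on the other strand. The library kit marks strand, but how the counting treated strand is not given in the sources used here. The part of these overlapping genes in the levels of *Tapbp*, *Tap2* and *Tap1* was not tested.

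The class II chains were lower than the classical class I chains. *H2-Aa* and *H2-Ab1* encode the alpha and beta chains of I-A, the class II molecule of this strain, and had means of 82.9 (77.3 to 88.7) and 76.2 (70.9 to 81.8). *H2-Eb1* encodes the beta chain of I-E and had 84.1 (78.5 to 90.0). Per kilobase these were 21.8, 29.7 and 43.2, all below the median gene. *H2-Ab1* was above *H2-Aa* by each length definition, from 1.23-fold to 2.45-fold. *H2-Eb1* over *H2-Ab1* changed direction with the definition, from 0.743 to 1.49, so these genes had no fixed order. All windows of the class II chains were found in no other annotated transcript.

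Mice of the b haplotype make no I-E, because the promoter of the alpha chain gene *H2-Ea* is deleted. In these libraries *H2-Ea* had 1 read, a mean of 0.0932 (0.00254 to 0.559). Its partner *H2-Eb1* had a mean of 84.1, close to the 82.9 of *H2-Aa* and the 76.2 of *H2-Ab1*. Per kilobase *H2-Eb1* was at 43.2, against 21.8 and 29.7, and its order with *H2-Ab1* changed with the length definition. *H2-Eb2*, a beta chain gene beside *H2-Eb1*, had a mean of 6.92 and was 21.2-fold below it per kilobase, with a range of 19.6 to 38.1.

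Class II molecules are guided by the invariant chain (*Cd74*) to endosomes, where H2-DM exchanges its remnant for peptide and H2-O restrains H2-DM. *Cd74* had a mean of 171 (163 to 180) and 102 per kilobase, at percentile 58.8. It was 2.36-fold above *H2-Eb1* on that scale, between 1.80-fold and 2.41-fold by the length definitions. *H2-K1* in turn stood 3.63-fold above *Cd74* per kilobase, with a range of 2.87 to 9.02. *Cd74* over *H2-DMa* was 1.68 per kilobase (1.57 to 1.79), but 0.485 by the median transcript, so by exon length the invariant chain was the highest of the class II genes and not under all definitions. It was below the main class I chain by each.

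Of the H2-DM genes, the alpha chain *H2-DMa* had a mean of 210 (201 to 219) and 60.8 per kilobase. The beta chain is encoded by a pair of neighbouring genes, of which *H2-DMb1* had 48.2 and *H2-DMb2* 10.3, or 28.7 and 5.89 per kilobase. *H2-DMb1* was 4.87-fold above *H2-DMb2* (counting interval 3.93 to 6.02), and up to 9.63-fold above it over the length definitions. These genes share 11.3% and 10.3% of their windows with each other and with no other gene. H2-O, best known from B cells and thymus, was low, with a mean of 15.8 for *H2-Oa* and 23.2 for *H2-Ob*. By exon length *H2-DMa* was 5.41-fold above *H2-Oa*, with a range of 4.84 to 22.5 over the definitions. *H2-DMb1* was 6.64-fold above *H2-Ob*, with a range of 3.94 to 8.25. The listed levels of the editor thus exceeded those of its inhibitor in both chains, under each length definition. *H2-DMa* shares 6.58% of its windows with the antisense gene *Brd2*, which had a mean of 3917. *H2-Oa* shares 8.98% with *BC051537*, also on the other strand, which had a mean of 6.29. The part of these genes in the levels of *H2-DMa* and *H2-Oa* was not tested. The ratios that use these levels, *Cd74* over *H2-DMa* included, carry the same limit.

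*Ciita* and *Nlrc5* encode coactivators that switch on class II and class I genes. *Nlrc5* had a mean of 80.7 (75.2 to 86.5) and *Ciita* 70.0 (64.9 to 75.4). Both are long genes, and per kilobase they were at 9.50 and 7.34, the lowest values for genes with means of this size among the members. Their ratio was 1.29 by exon length, 0.914 by the longest transcript and 2.59 by the median transcript, so neither was above the other under all definitions. *H2-Ke6*, which encodes a steroid dehydrogenase, had a mean of 456, but only 38.4% of its windows were its own, since the annotated gene *Gm20427* runs across it on the same strand.

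**Figure D2:**
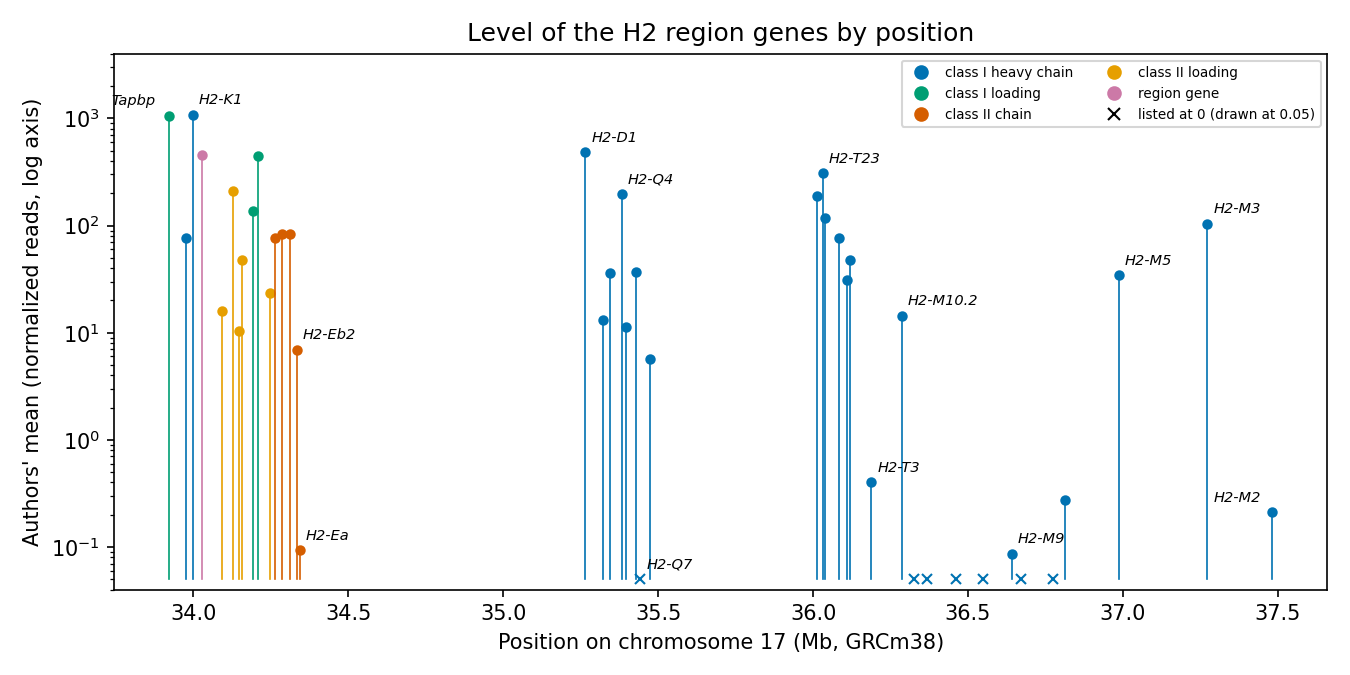
The authors' mean, on a log axis, of the 43 listed members and zero genes placed on chromosome 17, by position in GRCm38; crosses mark genes at 0, drawn at 0.05. High levels occur in each cluster from *Tapbp* to *H2-T23*, and crosses gather between *H2-M10.2* and *H2-M5*.

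The positions of the genes were taken from the GENCODE M21 annotation of GRCm38. Of 41 members with a position, 36 lie on chromosome 17, in a stretch of 3.57 Mb at chr17:33915899-37483552, and 5 lie on other chromosomes. At its start *Tapbp*, *H2-K2*, *H2-K1* and *H2-Ke6* sit within 0.112 Mb and held 32.2% of the members' summed mean. The class II stretch from *H2-Oa* to *H2-Ea*, chr17:34092340-34344645, also holds *Tap1* and *Tap2*, and its 12 genes held 13.7%. The D and Q stretch, chr17:35262730-35474563, held 9.46% with 8 genes, and the T stretch, chr17:36005695-36190287, held 9.26% with 7 genes. The M stretch is the longest at 1.20 Mb and held 1.85% with 12 genes. Within it the 8 genes from *H2-M10.1* to *H2-M10.6*, chr17:36322858-36815564, had 2 genes above 0 and a summed mean of 0.359. These 8 were among the 15 heavy chains with a mean under 1. *H2-Q7*, *H2-T3* and *H2-M2* lie elsewhere in the region, and *H2-L*, *H2-Q8*, *H2-Q9* and *H2-T9* were not matched to a position.

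Other genes of the pathway were read from fixed lists. Peptides for class I are cut by the proteasome, in which interferon can replace 3 catalytic subunits. The standard subunits *Psmb5*, *Psmb6* and *Psmb7* were at 1160.3, 1101 and 649.8 per kilobase. Their inducible counterparts *Psmb8*, *Psmb9* and *Psmb10* were at 32.1, 11.1 and 316. *Psmb10* was thus far closer to the standard subunits than *Psmb8* and *Psmb9*, both of which lie in the class II stretch beside the *Tap* genes. The activator genes *Psme1* and *Psme2* were at 202 and 179.8 per kilobase.

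General chaperones of the endoplasmic reticulum that also serve class I were abundant, with 2849.96 per kilobase for *Calr*, 2170.1 for *Canx* and 1571 for *Pdia3*. The trimming peptidase *Erap1* was at 78.1. Of the endosomal genes, *Lgmn* reached 2314, *Ctss* 1856 and *Ctsl* 412 per kilobase, while the thiol reductase *Ifi30* was at 102. *Marchf1*, a ubiquitin ligase that removes class II from the surface, had a mean of 446. *B2m* at 2675 was within the range of these chaperones and proteases, and *Cd74* at 102 was level with *Ifi30*.

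Factors that act on MHC promoters were read from a list of transcription genes. The subunits of the RFX complex, which binds MHC promoters, were at 158 for *Rfx5*, 213 for *Rfxap* and 216 for *Rfxank* per kilobase. The NF-Y subunits *Nfya*, *Nfyb* and *Nfyc* were at 58.9, 97.9 and 229.9. The interferon regulatory factors were at 26.6 for *Irf8*, 41.8 for *Irf1* and 63.0 for *Irf2*. The shared factors of the MHC promoters thus stood above *Ciita* and *Nlrc5* per kilobase.

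Class I like genes outside the *H2* region are related in fold and differ in task. *Fcgrt*, the neonatal Fc receptor, was the highest of 7 at 268 per kilobase, followed by the iron regulator *Hfe* at 61.2. *Cd1d1* and *Mr1*, which present lipids and vitamin metabolites, were at 38.5 and 31.7. *Cd1d2*, the neighbour of *Cd1d1*, had a mean of 0.0926. Costimulatory genes were low, with means of 58.5 for *Cd86*, 36.7 for *Cd80* and 18.7 for *Cd40*, and the inhibitory ligand *Cd274* had 169.

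Lymphocyte receptors for MHC or for class I like molecules were near the lower end. *Cd8a* had a mean of 1.31, *Cd8b1* 0.620, *Klrk1* 1.23 and *Cd4* 5.57. *Lag3*, which also binds class II, had 205. *Pirb* and *Lilrb4a*, read from the same list as *Cd8a* and *Klrk1*, had 18.3 and 34.3.

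Markers of cell types were also read from fixed lists. Of the microglia markers, *Csf1r* had a mean of 3041, *Sall1* 1333, *Cx3cr1* 1278, *P2ry12* 583 and *Aif1* 111. Border macrophage markers summed to 229, with *Mrc1* at 76.8 and *Ms4a7* at 4.81, and per kilobase *Pf4* was the highest of them at 14.7. Dendritic cell markers summed to 892, of which *Flt3*, a gene not limited to these cells, gave 765 and *Zbtb46* 114. *Clec9a* was at 10.03 and *Ccr7* at 1.54, while *Cd209a* at 0.705 and *Xcr1* at 0.790 were below 1. B cell markers summed to 59.6 with *Pax5* at 26.9 and *Ms4a1* at 4.33, T cell markers to 26.6 with *Lck* at 20.03 and *Cd3d* at 1.19, and neutrophil markers to 112 with *S100a9* at 61.4 and *Ly6g* at 0.580. All markers in the B cell, T cell and dendritic cell lists were above 0, as were all 4 forebrain genes and 20973 of the 25232 listed genes. A mean above 0 does not by itself show that such cells were present. Per kilobase, the medians of the B cell, T cell and dendritic cell lists were 3.03, 0.670 and 1.91, against 241 for microglia. By mean, *Flt3* and *Zbtb46* were above *Aif1*, the lowest of the microglia markers. Which cells the MHC RNA came from was not tested.

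Markers of endothelium summed to a mean of 4511, and *Cldn5* was the highest of them per kilobase at 501.2. The tissue markers were those of spinal cord: *Mbp* of oligodendrocytes had a mean of 319615, *Gfap* of astrocytes 56289.5, *Snap25* of neurons 59050.3 and *Chat* of motor neurons 735. The 5 *Hox* genes of the posterior cord had means from 152 to 1358, while of the forebrain genes *Emx1* had a mean of 0.993, *Tbr1* 3.60 and *Neurod6* 78.9.

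Promoter sequences were taken from the RefSeq table of GRCm38.p6, which gives 250 bases before to 50 bases after each start. Of the 42 members, 28 matched with 31 promoters. The 4 motifs known from MHC promoters were searched on both strands. GATTGG, searched as the core of the Y box, which NF-Y binds, was in 23 of the 31 promoters (74.2%) against 16.1% of all 32851 promoters. Its first base lay at a median of -58 from the start. The core of the X2 box, CGTCA, was in 32.3% of member promoters and 20.8% of all. The interferon element GAAA, any 2 bases, GAAA was in 3 member promoters (9.68%), those of *B2m*, *H2-T22* and *H2-T23*, and in 3.44% of all. The NF-kappaB like GGGGATTCC was in 4 (12.9%) and in 0.2496% of all. A CGTCA followed within 40 bases by GATTGG on the same strand, either strand counted, was found in *H2-Aa* and *H2-T22* (6.45%) and in 0.475% of all promoters. In *H2-Aa* the pair lay on the gene's own strand. In *H2-T22* it lay on the opposite strand, so along the gene CCAATC came before TGACG.

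Heavy chain promoters were split at a mean of 10. GGGGATTCC was in 4 of 12 (33.3%) of the higher, with a pair from *H2-K1*, and in 1 of 13 (7.69%) of the lower. The interferon element was in 2 and 0, and the X2 box core in 50% and 46.2%. These differences were not tested. GATTGG, on either strand, had similar shares in heavy chain genes of high and low level. It was in 9 of 12 promoters (75%) of heavy chains with a mean of at least 10, and in 10 of 13 (76.9%) of those below 10 or at 0. In class II chains and class II loading genes it was in 8 of 9 (88.9%). Heavy chain and class II genes differed in the orientation of these letters. In all 18 heavy chain promoters with a single core, which belong to 16 genes since *H2-K1* and *H2-M9* each have a pair of starts, the letters ran on the strand opposite to the gene, as CCAATC, while in the 7 such promoters of class II chains and class II loading genes, and in that of *B2m*, they ran on the gene's own strand. *H2-T22*, with 2 cores, had them in both orientations. *Tap1* of the class I loading genes had a single core on the opposite strand, at -222 from the start, and *H2-Ke6* had a single core on its own strand. Over all promoters with a single core, 49.2% had it on the opposite strand. A match of letters is a description and not a site of binding. The search took GATTGG only, so an ATTGG with another letter before it was not counted. Whether the CCAATC of a heavy chain promoter is its Y box was not tested, so the orientation is that of the letters searched.

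The stretches that follow are shown because *H2-K1*, *H2-D1*, *H2-Q6* and *H2-Q7* are the heavy chain genes whose promoters hold GGGGATTCC and range from the highest level of a heavy chain to 0. Each runs 5′ to 3′ on the strand of its gene and ends at or before the RefSeq start, which for *H2-K1* is the more downstream of its pair. GGGGATTCC and CCAATC, which is GATTGG on the other strand, are in capitals. Each stretch also holds ATTGG in small letters upstream of CCAATC, on the gene's own strand, which the search for GATTGG left out. Which of these is the Y box was not tested. They lie at chr17:34000334-34000478 on the minus strand for *H2-K1*, and on the plus strand at chr17:35262903-35263066 for *H2-D1*, chr17:35424657-35424820 for *H2-Q6* and chr17:35439002-35439154 for *H2-Q7* in GRCm38.p6.
H2-K1: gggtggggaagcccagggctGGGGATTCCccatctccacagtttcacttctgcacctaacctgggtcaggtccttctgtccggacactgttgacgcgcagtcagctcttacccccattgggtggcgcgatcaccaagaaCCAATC
H2-D1: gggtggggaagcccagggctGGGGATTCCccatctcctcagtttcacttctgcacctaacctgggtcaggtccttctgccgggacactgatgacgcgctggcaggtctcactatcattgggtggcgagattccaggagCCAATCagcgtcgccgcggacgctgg
H2-Q6: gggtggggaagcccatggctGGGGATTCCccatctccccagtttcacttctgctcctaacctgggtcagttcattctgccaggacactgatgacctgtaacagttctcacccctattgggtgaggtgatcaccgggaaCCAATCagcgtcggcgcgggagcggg
H2-Q7: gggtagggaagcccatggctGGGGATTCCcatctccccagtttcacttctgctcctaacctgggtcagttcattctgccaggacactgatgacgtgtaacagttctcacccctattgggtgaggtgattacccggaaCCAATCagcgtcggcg
The stretch of *H2-Q7*, listed at 0, was 96.8% identical to that of *H2-Q6* over 154 aligned positions, with the ends left out. *H2-K1* and *H2-D1* shared 89.0% of 145 positions, and the other pairs shared between 83.6% and 85.5%. Similar promoter letters thus went with listed means of 1087, 487, 36.6 and 0. Whether the 0 of *H2-Q7* reflects reads lost between copies or little RNA was not tested.

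The next stretches show the orientation of GATTGG, again in capitals, in *B2m*, in class II chains and class II loading genes, in *H2-T23* and in *H2-M10.4*, which was listed at 0. On the plus strand of GRCm38.p6 lie *B2m* at chr2:122147613-122147658, *H2-Eb1* at chr17:34305787-34305857, *H2-DMb1* at chr17:34153109-34153154, *H2-DMb2* at chr17:34145138-34145183, *H2-Oa* at chr17:34092315-34092360 and *H2-Ob* at chr17:34238827-34238872. On the minus strand lie *H2-Aa* at chr17:34287847-34287892, *H2-T23* at chr17:36032728-36032773 and *H2-M10.4* at chr17:36462381-36462426. *H2-Eb1* holds GATTGG in both orientations.
B2m: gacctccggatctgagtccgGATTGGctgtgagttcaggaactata
H2-Eb1: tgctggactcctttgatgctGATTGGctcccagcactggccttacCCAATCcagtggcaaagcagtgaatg
H2-Aa: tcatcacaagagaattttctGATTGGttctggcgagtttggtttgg
H2-DMb1: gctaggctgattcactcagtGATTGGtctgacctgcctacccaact
H2-DMb2: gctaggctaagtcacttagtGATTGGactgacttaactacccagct
H2-Oa: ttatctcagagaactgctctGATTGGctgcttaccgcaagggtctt
H2-Ob: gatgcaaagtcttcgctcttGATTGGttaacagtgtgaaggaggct
H2-T23: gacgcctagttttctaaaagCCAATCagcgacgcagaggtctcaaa
H2-M10.4: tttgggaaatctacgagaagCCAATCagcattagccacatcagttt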

How the data were processed

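RNA of spinal cord was sequenced from 5 WT and 5 *SOD1 G93A* mice. Groups came from the sample labels. According to the methods and the submitters' processing notes, the authors trimmed reads with Fastp, aligned them to mm10 with HISAT2 2.1.0, summed the reads with a unique position per gene with featureCounts 2.0.2 and compared the genotypes with DESeq2. Libraries were made with a stranded TruSeq mRNA kit. The strand setting and the gene annotation of the counting are not given in the sources used here. The unit of the column used is a signal that is never negative: the authors scaled the counts of each library by its size factor and averaged them over all libraries. The other columns that the authors deposited hold their comparison of the genotypes (fold changes, standard errors, test statistics and p-values) and were not used, so no test was made.

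Members and lists were chosen with earlier results of these data known. Named with values were members with a mean of at least 10, the 3 lowest above 0 and those that define the classes, and further genes were named after their values were seen. Some genes of the lists are not reported here. Size factors were read from the means worth 1 read. Exon lengths, as the union of annotated exons, and positions came from GENCODE M21 (24310 of 25232 symbols matched). *H2-Ea* was matched through its synonym. Windows of 100 bases of each member were searched in all annotated transcripts on both strands. Exact Poisson intervals (95%) used reads summed over libraries, and are lower bounds on the true error. Promoters of 32851 starts were searched by letters, and stretches were aligned globally with Biopython 1.88. Python 3.11.15, numpy 2.4.6, pandas 2.3.3, scipy 1.17.1 and matplotlib 3.10.9 were used. Steps that count reads, windows and motifs were tested on simulated data. Alternatives changed the class borders, the length definition, the thresholds, the window and the motif distance.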

Additional observations from a re-analysis of the deposited data

How the results depend on the processing

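With *B2m* left out, the share of heavy chains in the summed mean went from 34.5% to 47.7%, of class II chains from 3.00% to 4.15%, of class I loading from 21.8% to 30.1% and of class II loading from 5.74% to 7.93%. Summed per kilobase, the same shares were 23.2%, 1.965%, 10.3% and 4.32%. Counting *Cd74*, H2-DM and H2-O with the class II chains gave 8.75%. The members' median stood at percentile 22.5 among genes with a mean of at least 10, against 36.9, and at 37.3 when ranked on the mean itself. The median share of unique windows in heavy chains was 96.0% with windows of 75 bases, against 99.3%, and 100% with 150. The motif pair was in 1 member promoter within 25 bases and in 2 within 60. Members numbered 36 at a mean of at least 1, 34 at 10, and 50 with symbols matched through synonyms. The 8 genes so added include *Rps18*, *Slc39a7* and *Pfdn6*, which are not MHC genes, and raised the sum from 8329 to 14203.

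Of 23 ratios per kilobase, 21 kept their direction with the longest transcript, 22 with unique windows and 20 with the median transcript, a length chosen after seeing the data. *H2-Eb1* over *H2-Ab1* became 0.801 with the longest and 0.743 with the median transcript, and with the median transcript *H2-Oa* over *H2-Ob* became 0.912 and *Cd74* over *H2-DMa* 0.485. *Nlrc5* over *Ciita* became 0.914 with the longest transcript, and *H2-T24* over *H2-Q4* became 0.974 with unique windows. *B2m* over the summed heavy chains became 0.894 with the median transcript. These follow from the lengths alone.

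Not run were protein identity, which needs protein sequences not used here, and leaving out each replicate, since the column pools all libraries. No paired analysis was possible because the column gives no single library. Depth limits genes at 0 to a mean of up to 0.301.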
